A study of Mus musculus with 1 sample.

Results

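The integrin and laminin genes of basal adhesion described here are Itga2, Itga3, Itga6, Itgb1, Itgb4, Itgb6, Lama3, Lama5 and Lamb3. They were chosen by name, and the 9 genes were found among 32285 genes of 1 library of single cells from mouse gastric organoids, which are stomach epithelium grown in culture. The library is labelled wild type with no treatment and its cell type epithelial. The cells went through a 10x Genomics 3′ kit. Organoids were taken 7 days after seeding and broken up for 30 min at 37 °C in 0.05% trypsin-EDTA. The labels give no strain, age or number of animals. A UMI, or unique molecular identifier, marks 1 captured RNA molecule. Of 1991 deposited barcodes, the 1892 in which 500 or more genes were detected and the mitochondrial share of UMIs was 20% or less are described as cells.

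Integrins are surface receptors made of 1 alpha and 1 beta chain. The beta chain encoded by Itgb1 pairs with many alpha chains, while that of Itgb4 pairs with alpha 6 alone and that of Itgb6 with alpha v alone. Laminins are basement membrane proteins made of an alpha, a beta and a gamma chain. The laminin chains of Lama3 and Lamb3 join in 1 laminin of epithelial basement membranes. That laminin and those that hold the alpha chain of Lama5 are ligands of the alpha 3 beta 1, alpha 6 beta 1 and alpha 6 beta 4 integrins. Alpha 6 beta 4 is the integrin of hemidesmosomes, which tie keratin filaments to the basement membrane. Alpha 2 beta 1 binds collagen and laminin, and alpha v beta 6 binds the latent form of TGF-beta and is known from epithelia under repair.

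In annotation of GRCm38 (GENCODE M21), the alpha chain genes lie at chr13:114833081-114932100 on the minus strand (Itga2), chr11:95044474-95076801 on the minus strand (Itga3) and chr2:71745616-71858416 on the plus strand (Itga6). The beta chain genes lie at chr8:128685654-128733200 on the plus strand (Itgb1), chr11:115974709-116008412 on the plus strand (Itgb4) and chr2:60598292-60722643 on the minus strand (Itgb6). Promoter windows of 300 bases, 250 before and 50 after the start site, were found in a RefSeq table of build GRCm38.p6 for 6 of the 9 members. The table held no entry for Itga6, Itgb4 and Lama3.

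The 4 windows printed here belong to Itga2, Itgb6 and Itga3, which on the results given further on lay farthest from the other cells in 1 cluster among the 6 members with a window, and to the common partner Itgb1. They are read 5′ to 3′ on the strand of the gene, at chr13:114932051-114932350 (minus, Itga2), chr11:95076665-95076964 (minus, Itga3), chr2:60722554-60722853 (minus, Itgb6) and chr8:128685404-128685703 (plus, Itgb1). For Itga3 and Itgb6 the start site farther upstream of those in the table is shown. Capitals mark matches to the letters searched on both strands, which were TGAGTCA for AP-1, GGGCGG for SP1, TATAAA for TATA and GGAATG for TEAD.
Itga2: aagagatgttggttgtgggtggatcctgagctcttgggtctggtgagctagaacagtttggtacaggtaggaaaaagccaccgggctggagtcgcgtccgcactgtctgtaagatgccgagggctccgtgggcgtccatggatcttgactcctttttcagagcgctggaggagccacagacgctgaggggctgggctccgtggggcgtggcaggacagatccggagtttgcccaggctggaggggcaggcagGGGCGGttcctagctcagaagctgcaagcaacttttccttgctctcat
Itga3: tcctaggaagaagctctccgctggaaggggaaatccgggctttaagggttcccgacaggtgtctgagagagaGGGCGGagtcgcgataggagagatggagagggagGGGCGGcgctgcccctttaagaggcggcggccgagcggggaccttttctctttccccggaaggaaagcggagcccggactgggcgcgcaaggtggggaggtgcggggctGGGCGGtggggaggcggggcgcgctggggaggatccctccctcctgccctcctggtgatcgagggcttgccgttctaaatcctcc
Itgb6: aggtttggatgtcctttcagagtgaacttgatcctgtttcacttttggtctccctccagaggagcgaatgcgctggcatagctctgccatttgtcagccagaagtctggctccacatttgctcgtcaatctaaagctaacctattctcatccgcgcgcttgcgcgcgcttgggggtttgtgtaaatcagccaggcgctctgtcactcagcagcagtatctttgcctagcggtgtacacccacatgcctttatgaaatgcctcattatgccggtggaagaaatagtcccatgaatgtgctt
Itgb1: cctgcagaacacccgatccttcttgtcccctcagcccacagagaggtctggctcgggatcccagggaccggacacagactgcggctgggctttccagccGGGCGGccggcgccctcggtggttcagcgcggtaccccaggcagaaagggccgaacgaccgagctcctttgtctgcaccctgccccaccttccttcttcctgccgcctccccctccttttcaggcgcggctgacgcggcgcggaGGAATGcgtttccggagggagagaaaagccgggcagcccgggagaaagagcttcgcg
With the start site counted as 0, the Itga2 window held the SP1 letters from position 2, and the Itga3 window held them 3 times. The Itgb1 window held the SP1 letters from position -151 and the TEAD letters from position -7, with no base shared between them, and the Itgb6 window held no searched letters. Among the 9 windows of the 6 matched members, 5 held the SP1 letters, 2 the TEAD letters and 0 the AP-1 or TATA letters. Of all 32851 windows in the table, 35.7% held the SP1 letters, 14.7% the TEAD letters, 5.20% the AP-1 letters and 13.6% the TATA letters. These matches are descriptions of letters, not of binding.

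The kept cells held 20118334 gene UMIs, with a median of 8512.5 per cell (range 890 to 47183). All 5 epithelial marker genes searched were detected, led by Krt18 with a UMI in 99.6% of cells. Markers of squamous basal cells were near the limit of detection, with 30 UMIs over 5 genes and Krt5 and Krt6a at 0. Fibroblast, muscle and pericyte, and endothelial lists held 6, 6 and 3 UMIs, and 6 leukocyte genes held 211 UMIs, of which 196 were of Cd68, with Ptprc at 1 UMI and Itgam at 0. Each cell was given the multiplexing tag with the most UMIs in it, which was CMO301 in 1062 cells and CMO302 in 830 cells. No limit was set for cells with few tag UMIs or with UMIs of several tags. The labels do not say what each tag marks. There was 1 library, so no p-value was computed, and every interval is at 95% and covers counting error only. The part of free RNA in these counts was not estimated, and no cell type known to lack these genes was found in the library.

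The cells transcribed the parts of alpha 3 beta 1 and alpha 6 beta 1 most. Levels are in CPM, the UMIs of a gene per 1000000 gene UMIs of the same cells. In 3′ libraries each molecule is counted once, so levels were not divided by gene length, and how well each 3′ end was captured is not known. The 9 members summed to 430 CPM (exact Poisson interval 421 to 439), of which the 6 integrins held 372 CPM and the 3 laminins 58.1 CPM. At least 1 of the 9 had a UMI in 90.4% of cells.

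Among alpha chains, Itga3, the laminin receptor chain that partners beta 1, reached 99.0 CPM (94.7 to 103) and was seen in 53.2% of cells. Itga6, which partners beta 1 or beta 4, reached 68.4 CPM (64.8 to 72.1) and 42.7% of cells. Itga2, the collagen receptor chain, held 50 UMIs, or 2.49 CPM (1.84 to 3.28), in 2.11% of cells. Itga3 was thus 1.45 times Itga6 by UMIs, and both were far above Itga2. The summed UMIs of Itga2, Itga3 and Itga6 nearly equalled those of Itgb1, with a ratio of Itgb1 to the sum of 1.02 (exact conditional binomial interval 0.968 to 1.06).

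Among beta chains, Itgb1 was the highest member at 172 CPM (167 to 178) and was seen in 71.9% of cells. Itgb4, the hemidesmosome chain, reached 17.5 CPM (15.7 to 19.4) in 15.8% of cells, and Itgb6 reached 11.7 CPM (10.3 to 13.3) in 10.5% of cells. Itgb1 was 9.86 times Itgb4 (8.83 to 11.0) and Itga6 was 3.91 times Itgb4 (3.47 to 4.41) by UMIs. Itgav, the partner of Itgb6, stood at 22.1 CPM, or 1.88 times Itgb6. Neighbours in the order of the 6 integrin members had Poisson intervals that did not overlap.

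Of the 20 other integrin genes searched, 7 had at least 3 UMIs. These were Itgav, Itgb5 (15.9 CPM), Itga7 (8.60 CPM), Itga2b (4.82 CPM), and Itga1, Itgae and Itga10 with 12, 11 and 8 UMIs. Itga5 and Itgb8 held 2 UMIs each and Itgb7 held 1. The other 10, which were Itga4, Itga8, Itga9, Itga11, Itgad, Itgal, Itgam, Itgax, Itgb2 and Itgb3, held 0. The exact Poisson interval of a count of 0 reaches 0.183 CPM. Itgb2, Itgal, Itgam, Itgax and Itgad encode leukocyte integrin chains.

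In the same annotation the laminin members lie at chr18:12333819-12583013 on the plus strand (Lama3), chr2:180176373-180225859 on the minus strand (Lama5) and chr1:193207699-193343878 on the plus strand (Lamb3). Itga6 and these 3 genes overlap other annotated genes on their own strand, so the counts of these 4 members are less certain. Among laminin alpha chains, Lama5 was the main one at 39.3 CPM (36.6 to 42.2) and was seen in 30.0% of cells. Lama3, the alpha chain that joins Lamb3, held 52 UMIs, or 2.58 CPM (1.93 to 3.39), and Lama5 was 15.2 times as high (11.5 to 20.5). Lama2 and Lama4 held 1 UMI each and Lama1 held 0. Lamb3, the beta chain that joins Lama3, reached 16.2 CPM (14.5 to 18.1), 6.27 times Lama3. The beta chains that can join Lama5 were Lamb2 at 24.6 CPM and Lamb1 at 12.3 CPM, and Lamc1, the common gamma chain, stood at 22.2 CPM. Lamb2 was thus 1.52 times Lamb3, and Lamc3 held 0 UMIs.

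**Figure D1:**
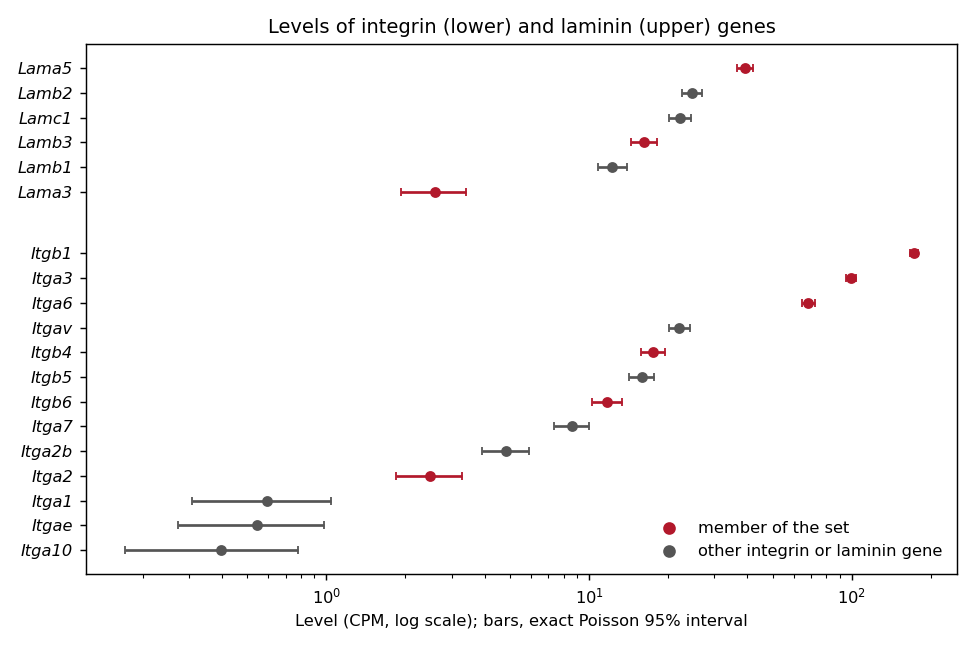
Levels of the integrin and laminin genes reported here that had at least 3 UMIs, in CPM on a log axis, with exact Poisson 95% intervals as bars; members are in red and other genes of both families in grey. Itgb1, Itga3 and Itga6 lie above every other integrin shown, and Lama3, at 2.58 CPM, lies below every other laminin shown.

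Of 5 other hemidesmosome or laminin receptor partner genes, 4 had at least 50 UMIs. The plakin Plec stood at 42.2 CPM, the tetraspanin Cd151, a partner of alpha 3 and alpha 6 integrins, at 37.9 CPM, and the tetraspanin Cd9 at 496 CPM. The plakin Dst had 120 UMIs and Col17a1, the hemidesmosomal collagen, held 1 UMI; both are named although the rule for named genes did not pick them. All 16 focal adhesion genes searched had at least 50 UMIs, led by the actin crosslinkers Actn1 (115 CPM) and Actn4 (104 CPM) and the integrin-binding Tln1 (70.2 CPM). Of 14 other basement membrane and receptor genes, 11 had at least 50 UMIs, led by the syndecan Sdc4 (263 CPM), the laminin receptor Bcam (220 CPM) and dystroglycan, Dag1 (98.5 CPM).

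Of the known complexes, alpha 3 beta 1 was the one whose chains were most often seen in the same cell. A UMI of both Itga3 and Itgb1 was found in 42.3% of cells (exact Clopper-Pearson interval 40.1 to 44.6), of Itga6 and Itgb1 in 35.1%, and of Itga6 and Itgb4 in 8.56%. Itgav and Itgb1, which also pair, were seen together in 15.8% of cells. Itgb6 and Itgav were seen together in 3.12% of cells and Itga2 and Itgb1 in 1.74%. Itgb1 with at least 1 of its alpha chains among Itga2, Itga3 and Itga6 was found in 54.3% of cells. Lama5 with Lamb2 and Lamc1 was found in 2.96% of cells, and with Lamb1 and Lamc1 in 1.90%. These shares move with depth: thinned to 3000 UMIs, which left out 57 shallower cells, Itga3 and Itgb1 were found together in 9.59% of 1835 cells.

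After thinning, the share of cells with 1 chain was compared between cells with and without a UMI of another. Itga6 was found in 24.5% (16.4 to 34.2) of the 98 cells with an Itgb4 UMI and in 15.3% (13.7 to 17.1) of the 1737 cells without, and these intervals overlap. Itga3 was found in 24.5% (21.4 to 27.8) of cells with an Itgb1 UMI and in 23.4% (20.9 to 26.0) of those without. Lamc1 was found in 7.14% (3.96 to 11.7) of cells with a Lama5 UMI and in 5.67% (4.60 to 6.91) of those without. The intervals with and without the other chain overlapped in all 11 pairs of chains compared in this way. Such an overlap does not show that the shares are equal.

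Over cells, the members varied together weakly. Values for each cell were ln(UMIs per 10000 + 1), and r is Pearson's over 1892 cells that share a library and differ in depth. The 36 pairs of members had a median r of 0.0323 (range -0.0233 to 0.0867), and 0 of 36 pairs reached 0.1, where 0.571% of all pairs of genes with at least 50 UMIs did. The median over those 51323646 pairs was 0.00777, and over pairs of genes with at least 1000 UMIs, of which 6.59% reached 0.1, it was 0.0253. The 5 highest member pairs were Itga3 and Itgb1 (0.0867), Itga6 and Itgb1 (0.0863), Itga2 and Itgb6 (0.0774), Itgb1 and Lamb3 (0.0718), and Itgb1 and Itgb4 (0.0655). The lowest were Itga3 and Lama3 (-0.0233) and Itgb6 and Lama3 (-0.0163). In counts this sparse such values are not a finding. Of 14 pairs recomputed after thinning, which were these 7 and the 7 partner pairs named next, 13 had a lower r and 1 a higher one. For Itga3 and Itgb1 r was then 0.0233 and for Itga6 and Itgb1 it was -0.00362, while for Itga6 and Itgb4 it was 0.0561. For Itga2 and Itgb6, r was 0.0190 within tag CMO301 and 0.152 within tag CMO302.

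Among known partners that were not in that list, r was 0.0195 for Itga6 and Itgb4, 0.0188 for Itgb6 and Itgav, and 0.00978 for Itga2 and Itgb1. For Lama3 and Lamb3, r was 0.0170. For the laminins of Lama5, r was 0.0667 with Lamc1, 0.0661 with Lamb2 and 0.0226 with Lamb1. Of the pairs plotted, Itgb5 and Lamb2 had the highest r (0.0967), and the highest that held a member was Itga6 and Itgav (0.0918). The members' own relation to the logarithm of total UMIs ran from 0.0221 for Lama3 to 0.172 for Itgb1 and 0.175 for Itga3. Given depth and mitochondrial share, the partial r was lower than r in all 14 pairs, at 0.0525 for Itga3 and Itgb1, 0.0717 for Itga2 and Itgb6, and 0.0604 for Itgb1 and Lamb3.

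**Figure D2:**
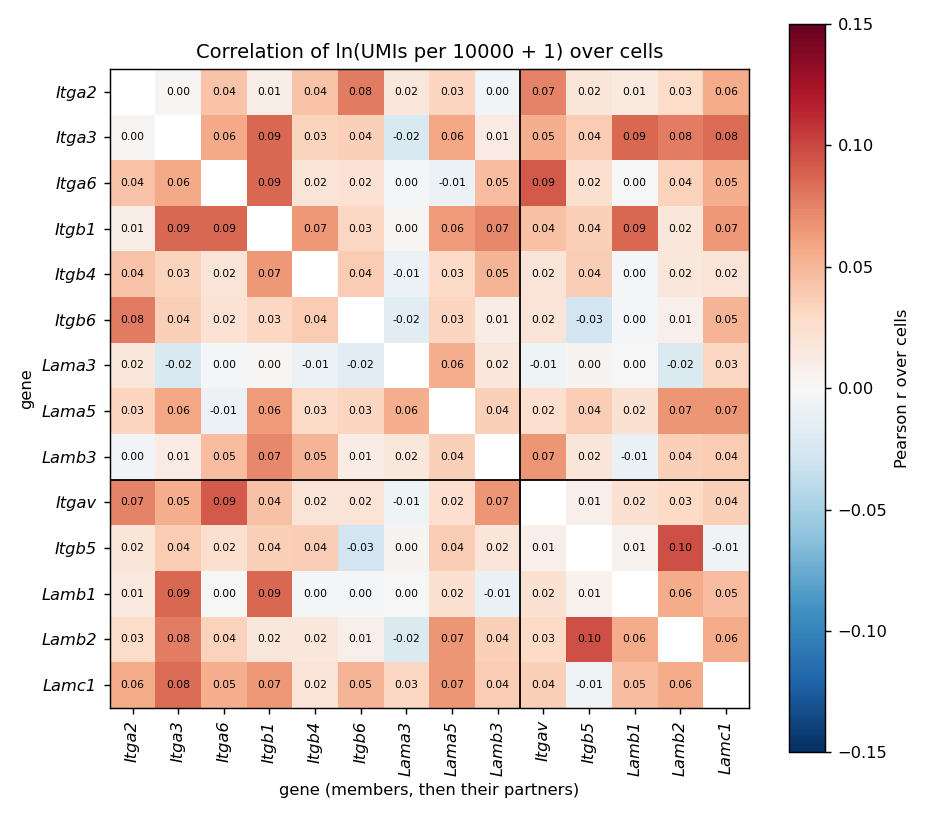
Pearson r over 1892 cells between the 9 members (upper left block) and 5 partner genes, with red above 0, blue below 0 and the diagonal left blank. All member pairs lie between -0.0233 and 0.0867, and the highest value shown is 0.0967 for Itgb5 and Lamb2.

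The genes whose pattern over cells was most like each member's were taken from genes with at least 1000 UMIs. For Itga3 they were Ccnd1, the G1 cyclin (0.230), the keratin Krt4 (0.216) and the caveolin Cav1 (0.203). For Itgb1 they were Ywhaz (0.208), Ccnd1 (0.206) and the spectrin Sptbn1 (0.201). For Itga6 they were Lmo7 (0.153), the scaffold Iqgap1 (0.142) and the calcium pump Atp2b1 (0.140). Ccnd1 was thus among the nearest genes of both Itga3 and Itgb1, whose own r with the logarithm of total UMIs was 0.175 and 0.172. The genes named here and next for each member have the 3 highest r of 2173 or 2174 candidates. Their r was not among those recomputed after thinning or given depth.

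For Lama3 the nearest genes were Ndrg1 (0.142), Bnip3 (0.126) and Ero1l (0.118), which are known as genes that low oxygen induces. For Lama5 they were the plakin Ppl (0.131), Esyt2 (0.130) and Psap (0.127), and for Lamb3 they were Sbno1 (0.111), Mbnl2 (0.110) and the syndecan Sdc1 (0.109). For Itga2 they were the glutathione transferase Gsta1 (0.139), Ube2n (0.118) and Taldo1 (0.111), and for Itgb6 they were Mgst3 (0.108), Calr (0.106) and Sox9 (0.104). For Itgb4 they were Serpinb6a (0.114), Ppp4r2 (0.109) and Man2a1 (0.0905).

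Among 1835 cells thinned to the same depth, the variance of UMIs over cells divided by their mean was 1.13 for Itga3, 1.08 for Lama5, 1.06 for Itga6 and 1.05 for Itgb1. Counts drawn at random at a constant level give 1, and the median was 1.02 over genes with at least 50 UMIs and 1.07 over those with at least 1000. For Itga2, Itgb4, Itgb6, Lama3 and Lamb3 at most 3 cells held 2 or more UMIs after thinning, too few to read such a value.

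To ask where in the culture each chain was transcribed, cells were grouped without the integrin, laminin, adhesion and cell cycle genes of fixed lists. Other genes, the integrin ligands Thbs1, Spp1 and Fn1 among them, could be used. The 6 clusters are numbered by size and called by their leading genes. Cluster 1 (639 cells) was led by Sprr1a, 2610528A11Rik and Ly6m, cluster 2 (484 cells) by Cxcl5, Cxcl2 and Nav3, and cluster 3 (359 cells) by Aox3, Scgb3a1 and Anpep. Cluster 4 (223 cells) was led by Psca, Prss22 and 2210011C24Rik, cluster 5 (124 cells) by the mitotic genes Aspm, Knl1 and Dlgap5, and cluster 6 (63 cells) by Cyba, Reg3g and Gm3776. None had enough fixed cell type markers among its leading genes to be named. Cluster 6 stood apart: it held 70 of the 88 UMIs of 4 Y-linked genes. Its summed pit cell markers reached 5135 CPM against 102 to 258 CPM in clusters 1 to 5, but 58.7% of those pit UMIs came from 1 cell; the sum was 2222 CPM without that cell, and the median over the 63 cells was 116 CPM. Of its cells 61.9% were called S or G2/M, against 13.9% to 20.7% in clusters 1 to 4 and 91.9% in cluster 5. Proliferation markers summed to 903 CPM there, 83.0 to 116 CPM in clusters 1 to 4 and 1490 CPM in cluster 5. Chief cell markers summed to 53.0 CPM against 0 to 1.75 CPM in clusters 1 to 5, and mucous neck markers to 68.7 CPM against 9.10 to 19.9 CPM. The chief cell UMIs were all of Pgc, 71 in the library, and 1 cell held 25 of them. The labels do not say whether these cells came from another animal or culture, so cell state and source cannot be told apart in the ratios of cluster 6. Its cells had a median of 14281 UMIs, where the medians of the other clusters ran from 6963 to 11765.

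A member was counted as higher or lower in a cluster at a CPM ratio of 1.5 to all other clusters, with counts under 3 taken as 3. On this rule 3 of the 54 ratios of 9 members in 6 clusters were higher, where 9.91% of the ratios of all genes with at least 50 UMIs were, and 11 were lower, where 15.2% were. Of those lower ratios 4 were in cluster 6 itself. Without cluster 6, 2 of 45 ratios were higher, where 8.15% over all genes were, and 5 were lower, where 14.3% were. Under another resolution or number of variable genes, or without doublets, the cells were clustered anew, and a ratio then belongs to the new cluster that best matched the old one. The ratios are descriptions of this library.

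**Figure D3:**
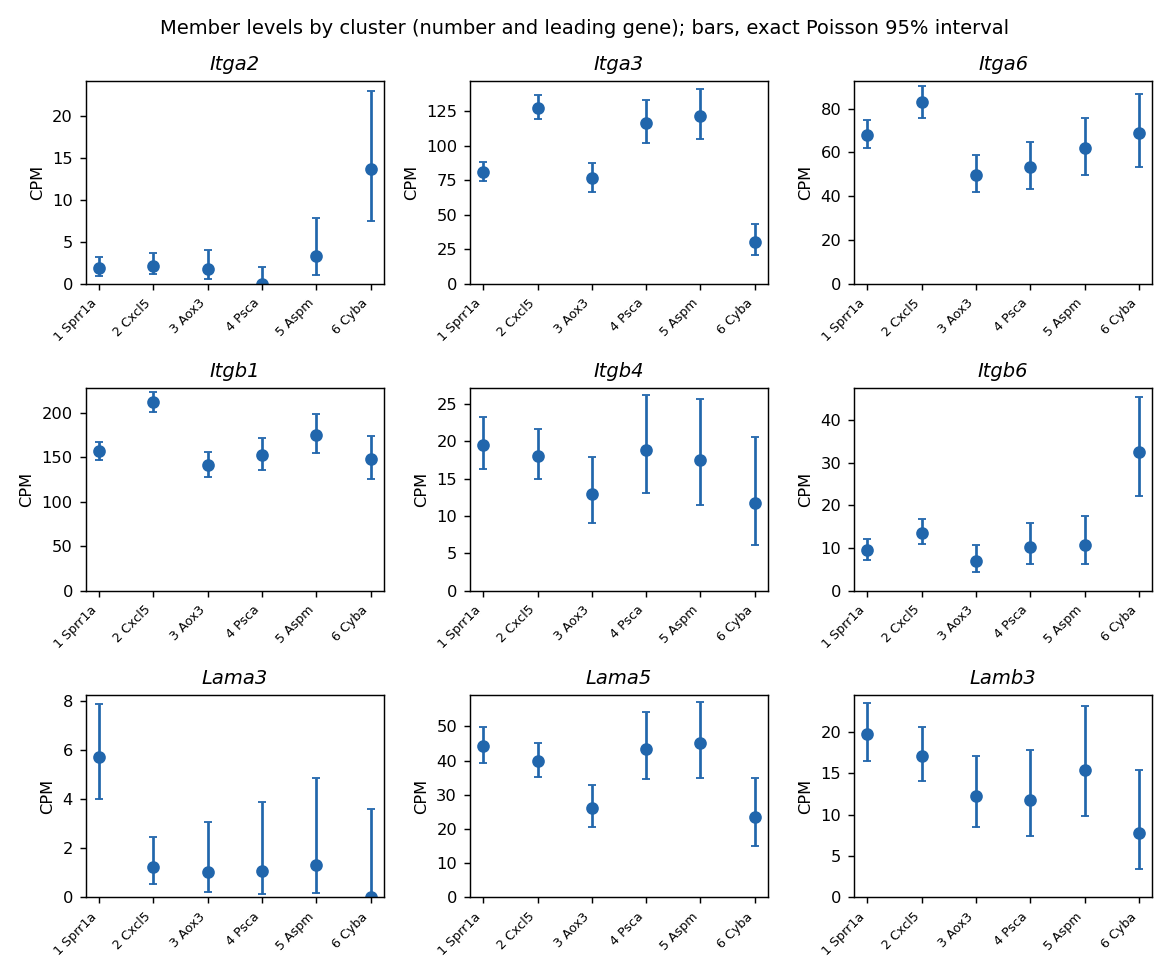
Level of each member in CPM (y axis, from 0) in the 6 clusters (x axis, number and leading gene), with exact Poisson 95% intervals as bars. Itga2 and Itgb6 are highest and Itga3 lowest in cluster 6, and Lama3 is highest in cluster 1.

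In cluster 6, 2 of 9 members were higher, where 23.0% of 10132 genes with at least 50 UMIs were, and 4 were lower, where 15.6% of genes were. Itga2 held 14 UMIs in 10 of the 63 cells, or 13.7 CPM, against 1.89 CPM in the other cells, a ratio of 7.29 (3.63 to 13.8). The other cells held 36 UMIs of it, so Itga2 met the limit of 50 UMIs only with those of cluster 6. Its calls without cluster 6 rest on those 36. Itgb6 held 33 UMIs in 21 cells, or 32.4 CPM against 10.6 CPM, a ratio of 3.05 (2.04 to 4.42). Itga3 went the other way, at 30.4 CPM against 103 CPM, a ratio of 0.296 (0.201 to 0.422).

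The alpha 6 and beta 1 chains were near the level of the other cells in cluster 6, with ratios of 1.0 for Itga6 and 0.852 (0.719 to 1.0) for Itgb1. Itga3 was thus 0.443 times Itga6 (0.280 to 0.685) by UMIs in cluster 6, while it was above Itga6 in each of clusters 1 to 5 (1.19 to 2.19 times). Itgb6 exceeded its partner there too: Itgav was 0.485 times Itgb6 (0.249 to 0.906), against 1.67 to 3.07 times in clusters 1 to 5. The other lower members were Lamb3 (0.471), Lama5 (0.586) and Itgb4 (0.661), of which the interval of Itgb4 held 1. The Lama5 call ended at resolution 0.3 (0.928) and with 1000 variable genes (0.994). Lama3 held 0 UMIs, too few molecules for a call against 2.72 CPM in the other cells.

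Both tags held cells of cluster 6, 37 with CMO301 and 26 with CMO302. Itga3 was lower within each tag, at ratios of 0.292 and 0.302. Itgb6 was higher within each, at 2.10 (1.14 to 3.61) in CMO301 and 4.72 (2.67 to 7.93) in CMO302. Of the 14 Itga2 UMIs in cluster 6, 3 were in cells tagged CMO301, where the ratio was 2.02 (0.390 to 6.62), and 11 in cells tagged CMO302, where it was 21.8 (8.56 to 55.4), so its size rests on few molecules of 1 tag. In groupings that joined these cells to cells of cluster 5, at resolution 0.3 or with 1000 variable genes, the ratios of Itga3 were 0.760 and 0.764 and those of Itgb6 were 1.94 and 1.93. The Y-linked UMIs, the pit, chief and mucous neck markers, the share of cycling cells and the depth of cluster 6 move with these values, and their part was not tested.

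Among laminin partners in cluster 6, Lamc1 was higher at 37.3 CPM, a ratio of 1.75 (1.22 to 2.44), and Lamb1 was lower at 3.92 CPM, a ratio of 0.308 (0.0834 to 0.8). Lamb2 was lower there as well, at 8.83 CPM, its lowest level among the clusters. Lama5 was 0.632 times Lamc1 there (0.362 to 1.08), whereas in clusters 1 to 5 it was 1.37 to 3.24 times Lamc1. Of 11 other basement membrane and receptor genes, 2 were higher and 5 lower in cluster 6, and among 16 focal adhesion genes 4 were higher and 0 lower, beside the 23.0% of all genes higher and 15.6% lower there.

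In cluster 1, 1 of 9 members was higher, where 6.15% of genes were, and 1 was lower, where 17.8% of genes were. The higher one was Lama3, with 37 of its 52 UMIs in 34 cells of this cluster, at 5.72 CPM against 1.10 CPM in the other cells, a ratio of 5.20 (2.79 to 10.2). The other cells held 15 UMIs of it, so Lama3 met the limit of 50 UMIs only with those of cluster 1. The ratio was 4.02 (1.84 to 9.30) within CMO301 and 8.45 (2.76 to 34.5) within CMO302. It was 2.28 with 3000 variable genes and 1.84 at resolution 1.0, where the matching clusters held 357 and 290 cells. The lower one was Itga2, at 12 UMIs and a ratio of 0.666 whose interval (0.317 to 1.30) held 1. That call ended without cluster 6 (0.976) and within CMO301 (0.885).

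The other laminin members differed less in cluster 1. Lamb3 was at 19.8 CPM, a ratio of 1.36 (1.08 to 1.71), but the ratio was 0.804 at resolution 1.0 and 0.745 with 3000 variable genes. Lama5 was at 44.4 CPM, a ratio of 1.20 (1.04 to 1.39). Itga3 was at 81.1 CPM, a ratio of 0.755 (0.682 to 0.835). Of 4 other integrins with at least 50 UMIs, 2 were higher and 0 lower, beside the 6.15% of all genes higher and 17.8% lower there. The higher ones were Itgav at 28.9 CPM, a ratio of 1.53 (1.26 to 1.86), and Itga2b at 6.64 CPM, a ratio of 1.68 (1.10 to 2.55). Ndrg1, the gene most like Lama3 over cells, was also among the 10 leading genes of cluster 1.

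In cluster 2, 0 of 9 members were higher, where 12.3% of genes were, and 1 was lower, where 4.66% of genes were. Itga3 came nearest to the fold, at 128 CPM and a ratio of 1.49 (1.36 to 1.63). It passed the fold at resolution 1.0 (1.64), with 1000 (1.70) and 3000 (1.56) variable genes, and as a mean over cells (1.53). The first 3 belong to matching clusters of 252, 419 and 407 cells, of which 250, 248 and 348 were of cluster 2. Itgb1 stood at 211 CPM, a ratio of 1.37 (1.28 to 1.47), and Itga6 at 82.8 CPM, a ratio of 1.34 (1.20 to 1.5), which was 0.978 at resolution 0.3, where cluster 2 merged with others. The median ratio over 10132 genes in cluster 2 was 1.11, and its cells were deep, with a median of 11765 UMIs.

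The ratios of Itga3, Itgb1 and Itga6 in cluster 2 kept their side of 1 within each tag, at 1.49 in both for Itga3, 1.34 and 1.41 for Itgb1, and 1.36 and 1.32 for Itga6. The laminin genes Lamc1 (29.1 CPM, ratio 1.54) and Lamb1 (16.8 CPM, ratio 1.66) were higher there, while Lama5 (1.03) and Lamb3 (1.09) had intervals that held 1. Lama3 was the lower member, with 8 UMIs and a ratio of 0.388 (0.158 to 0.833). This call rests on cluster 1, which held 37 of the 44 Lama3 UMIs in the other cells. Lama3 was at 1.25 CPM in cluster 2, beside 1.05, 1.07, 1.34 and 0 CPM in clusters 3 to 6. Beside the 12.3% of all genes higher there, 7 of 16 focal adhesion genes were higher and 0 lower, with a median ratio of 1.37, and Actn1 was at 159 CPM, a ratio of 1.67. Among 11 other basement membrane and receptor genes 5 were higher and 0 lower, and these were Bcam (342 CPM, ratio 2.10), Agrn (1.51) and the collagen IV genes Col4a1 (1.62), Col4a2 (1.73) and Col4a5; apart from Bcam they are named after their values were seen.

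In cluster 3 every member stood below the other cells, with a median ratio of 0.696, where the median over all genes compared was 0.864. By the fold, 0 of 9 members were higher, where 2.49% of genes were, and 3 were lower, where 18.7% of genes were. These were Itgb6 (7.00 CPM, ratio 0.560, interval 0.335 to 0.886), Lama5 (26.3 CPM, ratio 0.633, interval 0.492 to 0.804) and Lama3 (3 UMIs, ratio 0.370, interval 0.0738 to 1.15). The Lama3 call rests on cluster 1, which held 37 of the 49 UMIs in the other cells. Lama3 was at 1.05 CPM in cluster 3, beside 1.25, 1.07, 1.34 and 0 CPM in clusters 2, 4, 5 and 6. The call of Itgb6 was lost within CMO301 (0.774; 0.266 within CMO302), at resolution 0.3 (0.871) and with 3000 variable genes (0.836). The call of Lama5 was lost within CMO301 (0.712), without doublets (0.788), with 1000 variable genes (0.745) and at resolution 0.3 (0.898). Apart from the tags, the group compared had changed too: the matching cluster held 978 cells at resolution 0.3, of which 349 were of cluster 3 and 430 of cluster 2. It held 529 cells without doublets, of which 326 were of cluster 3, 487 with 1000 variable genes (299 of them) and 326 with 3000 (212 of them). Itga6 was at 49.7 CPM, its lowest level among the clusters, a ratio of 0.696 (0.581 to 0.828). The median depth of cluster 3 was the lowest, at 6963 UMIs.

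In cluster 4, 0 of 9 members were higher, where 2.86% of genes were, and 2 were lower, where 25.7% of genes were. Itga2 held 0 UMIs, at least 1.70-fold lower than in the other cells with 3 counts as the floor over the cluster. Without cluster 6 it was at least 1.30-fold lower, which is under the fold. Lama3 held 2 UMIs, a ratio of 0.392 (0.0462 to 1.49), and of 0.588 with these taken as 3. Neither call was made within a single tag. The Lama3 call rests on cluster 1, which held 37 of the 50 UMIs in the other cells. Lama3 was at 1.07 CPM in cluster 4, beside 1.25, 1.05, 1.34 and 0 CPM in clusters 2, 3, 5 and 6. Itga3 was at 117 CPM, a ratio of 1.20 (1.04 to 1.38), and Itga6 at 53.2 CPM, a ratio of 0.760 (0.613 to 0.933). Itga3 was thus 2.19 times Itga6 in cluster 4. In cluster 5, 0 members were higher and 0 lower, where 12.7% and 8.66% of genes were, and Itga3 was at 122 CPM, a ratio of 1.25 (1.07 to 1.46). Itga2 passed the fold there without cluster 6, with 5 UMIs and a ratio of 1.91 (0.579 to 4.95), and within CMO301, with 4 UMIs and a ratio of 1.91 (0.482 to 5.56).

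Ordered by cluster, Itga3 fell into 3 separate steps, with clusters 2, 5 and 4 above clusters 1 and 3, and cluster 6 below them. For Itgb1, cluster 2 stood above cluster 5 and the other neighbours overlapped. For Itgb6, cluster 6 stood above the other clusters, and for Lama5, cluster 3 stood below cluster 2, its neighbour in the order. Neighbouring clusters overlapped at every step for Itga2, Itga6, Itgb4, Lama3 and Lamb3. Itgb4 ran from 11.8 CPM in cluster 6 to 19.5 CPM in cluster 1, and every interval of its ratios over all cells held 1. Its ratio in cluster 3 was 0.710 (0.491 to 1.0), and the interval left out 1 without cluster 6 (0.695, 0.480 to 0.979) and within CMO301 (0.591, 0.348 to 0.95).

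By gene scores 448 cells were in S or G2/M (median depth 8328.5 UMIs) and 1444 in G1 (median depth 8606.5 UMIs). Of 9 members, 1 was higher in S or G2/M cells, where 8.41% of genes were, and 0 were lower, where 3.13% of genes were. That member was Itga2, at 3.87 CPM against 2.07 CPM, a ratio of 1.87 (0.989 to 3.44), and without cluster 6 its ratio was 1.10 and 0 of 9 members passed the fold in either direction, where 6.55% of genes were higher and 3.41% lower. Itga3 was at 86.5 CPM against 103 CPM, a ratio of 0.842 (0.753 to 0.940), and Itgb1 at 161 CPM against 176 CPM, a ratio of 0.913 (0.841 to 0.990). Without cluster 6 these ratios were 0.911 (0.811 to 1.02) and 0.939 (0.860 to 1.02), and the intervals of all 9 members held 1. Both lay on the other side of 1 when cycling cells were taken as those with a UMI of Mki67 or Top2a, at 1.05 and 1.04. Itgb6 had a ratio of 1.16 (0.852 to 1.56) by gene scores. It passed the fold by Mki67 or Top2a (1.59) and within CMO302 (1.83, 1.18 to 2.81), and it was 0.780 (0.492 to 1.20) within CMO301.

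Between the tags, over all cells, no member was past the fold. Of 9 members, 0 were higher in cells tagged CMO301, where 1.30% of genes were, and 0 lower, where 1.35% of genes were. Ratios of CMO301 to CMO302 ran from 0.940 (0.816 to 1.08) for Lama5 to 1.18 (0.659 to 2.17) for Lama3, and all 9 intervals held 1. Without cluster 6, 1 member was higher, where 1.47% of genes were, and 0 were lower, where 1.51% were. That member was Itga2, with 25 UMIs in CMO301 and 11 in CMO302, at 2.37 and 1.29 CPM, a ratio of 1.85 (0.876 to 4.15). For CMO301 and CMO302 in turn, over all cells, Itgb1 was at 174 and 171 CPM and Itga3 at 99.8 and 98.0 CPM.

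**Figure D4:**
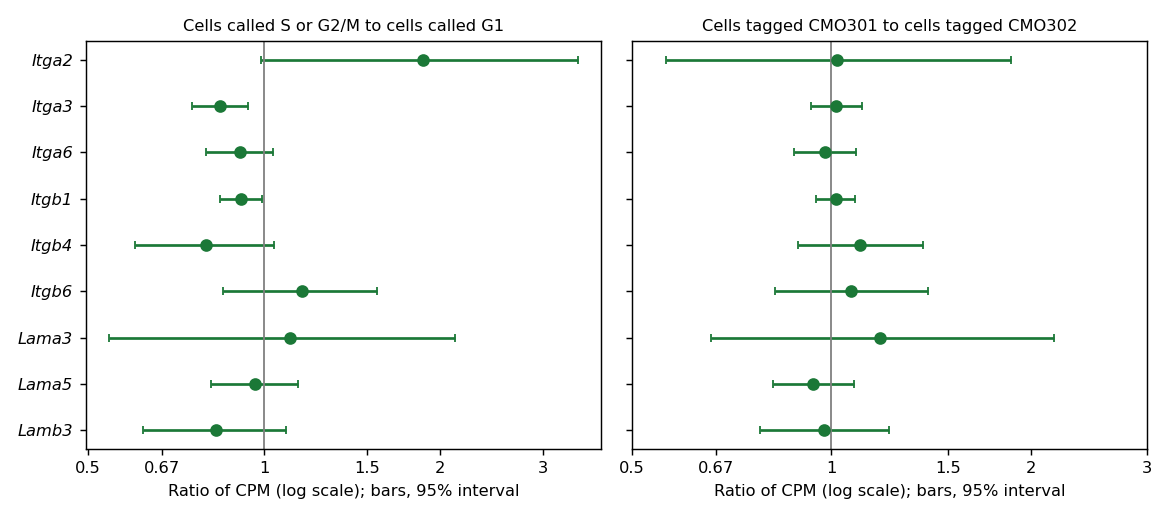
Ratios of CPM on a log axis for each member, for cells called S or G2/M to cells called G1 (left) and for cells tagged CMO301 to cells tagged CMO302 (right), with exact 95% intervals as bars and a line at 1. On the left the intervals of Itga3 and Itgb1 lie below 1, and on the right all 9 intervals hold 1.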

How the data were processed

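Droplet RNA counts of 1 wild type gastric organoid library were used. The deposited values are whole-number UMI counts, not normalized by the authors, and Cell Ranger 6.1.2 is named per the file headers. The builds named per the submitters' processing notes are GRCm38 and mm10. The 12 multiplexing tags, 21.4% of all UMIs, were kept out of totals and library sizes. Cells were filtered as stated, and the 12 doublets that Scrublet marked (0.634%) were kept, as the choice of cells asked.

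CPM, shares and ratios were computed with Poisson, Clopper-Pearson and conditional binomial intervals (scipy 1.17.1). Clusters came from scanpy 1.11.5 and leidenalg 0.10.2 with 2000 variable genes, 30 principal components, 15 neighbours, resolution 0.6 and seed 0. Listed genes of adhesion and the cell cycle, listed sex-linked genes and the genes of the mitochondrial genome were left out. Counts under 3 were set to 3 in calls past a fold, a choice made after seeing the data, and a side so raised was never called the higher one. Genes with at least 50 UMIs were compared. Scripts were tested on simulated data.

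The members and lists were chosen with earlier results of these data known. Genes named are the members, other integrins and laminins, the 3 genes with the most UMIs of each adhesion list, partners, the 3 most alike genes per member and the 3 leading genes per cluster. The alternatives were other cell filters, tags apart, thinning, other correlation measures, other settings of clustering and phase, and leaving out cluster 6. Of the other laminin genes, 1 is not reported here.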

Additional observations from a re-analysis of the deposited data

How the results depend on the processing

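Over 19 alternative settings, 49 results were recomputed. The summed level of the members was 430 CPM, and it was 415 after thinning and 418 as a mean over cells. The number of ratios higher across clusters was 3 of 54 (9.91% over all genes). It was 10 of 90 at resolution 1.0 (9.40%), 7 of 54 with 1000 (9.33%) and 7 of 63 with 3000 variable genes (9.31%), 5 of 63 without doublets (9.92%) and 5 of 54 within CMO301 (11.5%). The number lower was 11 of 54 (15.2%). It was 4 of 27 at resolution 0.3 (10.8%), 18 of 90 at resolution 1.0 (15.6%), 4 of 54 at a fold of 2.0 (5.71%), 5 of 45 without cluster 6 (14.3%) and 7 of 54 within CMO301 (15.5%). The number past the fold by phase was 1, and it was 3 by Mki67 or Top2a, 3 after thinning, 3 within CMO302, and 0 at a fold of 2.0, without cluster 6 or within CMO301. Of 303 recomputed ratios and r values, 25 crossed 1 or 0. In 6 of them the interval of the reported value had left out 1 or 0. These were r of Itga6 and Itgb1 after thinning (-0.00362), the ratio of Itga6 in cluster 2 at resolution 0.3 (0.978), the ratio of Lamb3 in cluster 1 at resolution 1.0 (0.804) and with 3000 variable genes (0.745), and the phase ratios by Mki67 or Top2a of Itga3 (1.05) and Itgb1 (1.04). In the other 19 (7 ratios and 12 r) that interval held 1 or 0, and the crossing ratios ran from 0.618, for Lama3 by phase with Mki67 or Top2a, to 1.19. The causes were not tested. For clusters and phase, the settings within each tag, and for clusters leaving out cluster 6, were chosen after seeing the data.

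No paired analysis was possible because only 1 library was analysed, which also leaves no replicate to omit. Depth limits Itga2 and Lama3 most, with 50 and 52 UMIs in the library.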

Other observations

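Thbs1 and Spp1, ligands of alpha v integrins, were more abundant than Itgav at 22.1 CPM. Thbs1, a thrombospondin that can release TGF-beta from its latent form, reached 312 CPM over the library and 471 CPM in cluster 2, a ratio of 1.98 to the other clusters. Spp1, or osteopontin, reached 96.8 CPM, with 272 CPM in cluster 5, 215 CPM in cluster 6 and 179 CPM in cluster 4, against 43.8 to 76.6 CPM in clusters 1 to 3. Spp1 was among the 10 leading genes of cluster 4, so its level there was part of what described that cluster. Fn1, or fibronectin, stood at 19.4 CPM and was highest in cluster 1, at 27.2 CPM, a ratio of 1.73, and Vtn held 0 UMIs.

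Of 6 genes of latent TGF-beta, 4 had at least 50 UMIs. Ltbp3, a latent TGF-beta binding protein, led at 28.3 CPM, followed by Tgfb1 at 9.15 CPM and Tgfb3 at 4.18 CPM. Tgfb1 was highest in cluster 5 and cluster 1, at 12.8 and 12.4 CPM. In cluster 6, where Itgb6 was highest, Tgfb1 stood at 9.81 CPM, a ratio of 1.08, and Ltbp3 at 15.7 CPM, a ratio of 0.541. Lrrc32 held 0 UMIs.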
